A study of Bos taurus with 170 samples.

Results

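The genes described are those of the proteins of the cytosolic ribosome. They were chosen by name, as the symbols of the UMI count table that begin with RPL or RPS and a number, together with RPLP0, RPLP1 and RPSA, while the RPS6K kinases and RPS19BP1 were left out. This gave 76 of the 10772 genes in the table, of which 46 belong to the large (60S) and 30 to the small (40S) subunit. Of the 76, 69 are core ribosomal proteins and 7 are paralogs or ribosomal protein-like genes (RPL7L1, RPL10L, RPL22L1, RPL26L1, RPL36AL, RPS4Y1 and RPS27L). A further 8 of 77 core symbols (RPL7, RPL22, RPL39, RPL41, RPLP2, RPS6, RPS15A and RPS25) had no row and were not analysed here.

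A ribosome is built from ribosomal RNA and 1 copy of most ribosomal proteins, so cells usually hold the mRNAs of these proteins in a coordinated manner. Many of these mRNAs carry a terminal oligopyrimidine tract at their start, through which their translation follows nutrient and growth signals. The oocyte lays down ribosomes and mRNAs for the first cleavages, and the embryo later takes over by transcribing its own genome. For several ribosomal proteins the genome holds a second gene that encodes a very similar protein.

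Blastomeres of in vitro produced bovine embryos were sequenced one by one with SCRB-Seq, a plate method that tags the 3′ end of each captured mRNA with a unique molecular identifier (UMI). Day 2 embryos were at the 8-cell stage and Day 3 embryos at the 16-cell stage according to the labels. All oocytes came from slaughterhouse ovaries, were matured and fertilised in vitro and were freed of cumulus cells and later of the zona pellucida, and no embryo received a treatment. There were 6 Day 2 embryos with 43 cells and 8 Day 3 embryos with 118 cells once 9 of 170 cells with fewer than 2000 UMI had been removed. The embryo was the replicate. The labels do not say whether embryos of 1 day shared a fertilisation batch, so p-values measure only the spread between these embryos.

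The sums over cells came to 438899 to 920192 gene UMI per embryo on Day 2 and to 294912 to 600185 on Day 3. A first barcode set covered Day3-E1, Day3-E2 and every Day 2 embryo and a second set Day3-E4 to Day3-E8, while for Day3-E3 the labels leave it unclear. Plate 1 held Day3-E1 to Day3-E4 and no Day 2 embryo. On plates 2 and 3 every Day 2 embryo was of the first set and every Day 3 embryo of the second. The 170 cells used 93 barcodes, 77 of them in 2 cells each, and no pair of kept cells had identical counts. According to the methods, libraries were separated by Nextera barcodes as well as by cell barcodes. Which embryos shared a library is not given there, so the sets may be library pools and not different barcodes. Spike-in RNA (ERCC), added in equal amount to each well, took 1.38% to 1.52% of the UMI in Day 2 embryos, 1.3995% to 1.46% in Day3-E1 to Day3-E3 and 2.43% to 2.98% in Day3-E4 to Day3-E8. Oocyte and cleavage stage genes were found in every embryo (11 of 17 listed markers had a row). Their summed level was 9832 to 11656 CPM, that is UMI per 1000000 UMI on genes, on Day 2 and 3208 to 12437 on Day 3. Of 14 markers of cumulus and granulosa cells 11 had a row, with a sum of 521 to 633 CPM on Day 2 and 196 to 587 on Day 3. HAS2 and STAR made up most of that sum, and CYP11A1 had 3 UMI in the whole data set. Of 6 sperm markers 4 had a row, and their sum never passed 10.297 CPM.

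The ribosomal protein genes took a small and even share of the mRNA in Day 2 embryos and a larger and uneven share in Day 3 embryos. On Day 2 the summed share of gene UMI was 1.96% in Day2-E1, 1.72% in Day2-E2, 1.84% in Day2-E3, 1.63% in Day2-E4, 1.79% in Day2-E5 and 2.04% in Day2-E6. On Day 3 the lowest shares were those of Day3-E1 (2.06%), Day3-E3 (2.35%), Day3-E5 (2.79%) and Day3-E6 (3.114%). The shares of Day3-E2 (4.17%), Day3-E7 (4.79%), Day3-E4 (5.52%) and Day3-E8 (6.62%) were higher. The groups did not overlap, although Day3-E1 lay just above the highest Day 2 embryo. The mean rose from 1.83% ± 0.154 (SD, n = 6) to 3.93% ± 1.63 (SD, n = 8), a ratio of 2.148 or a difference of 1.103 on the log2 scale. No p is given for the sum, since it is a score over the chosen genes. Within plate 2 (2 embryos per day) the log2 difference was 1.58, within plate 3 (4 Day 2 and 2 Day 3 embryos) 0.73, and with only the embryos of the first barcode set (2 on Day 3) 0.77. Without Day3-E4 and Day3-E8, the Day 3 embryos with the highest sums, it was 0.81. In the comparisons within a plate the days differ in barcode set, and in that within the first set they differ in plate.

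**Figure D1:**
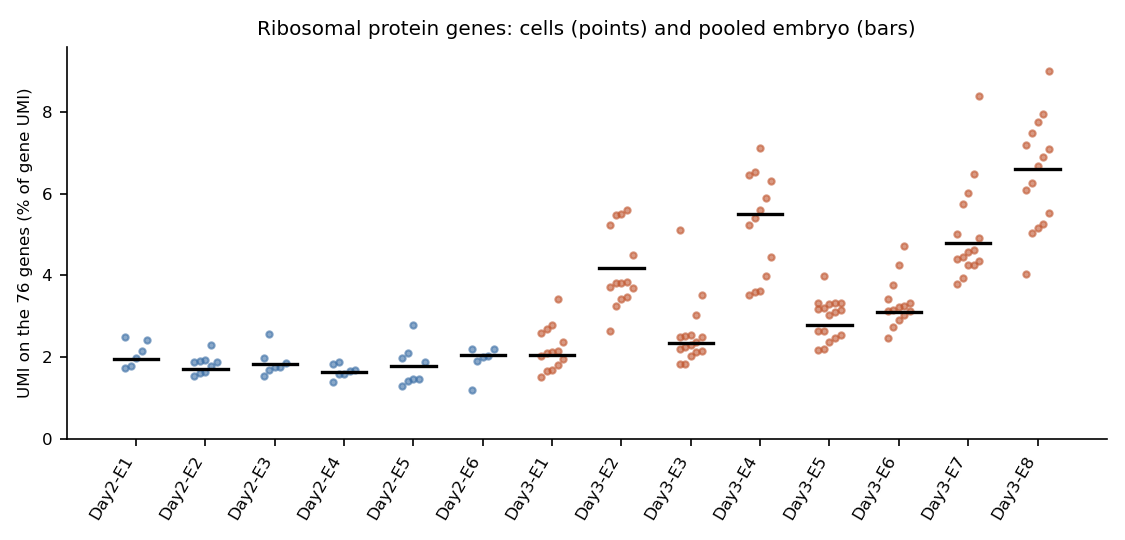
Percent of gene UMI on the 76 ribosomal protein genes (y axis) in each embryo (x axis), with 1 point per cell (blue: Day 2, orange: Day 3) and a black bar for the embryo's pooled cells. Day 2 embryos lie between 1.63% and 2.04%, Day3-E1 is close to them at 2.06%, and Day3-E8 is highest at 6.62%.

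The share of an mRNA pool rises when the genes gain mRNA and also when other genes lose it, and CPM cannot tell these apart. Spike-in RNA was added per well, that is per cell, so values per ERCC UMI are per cell and not per embryo. Day 3 embryos, at the 16-cell stage, hold more cells than Day 2 embryos at the 8-cell stage. Counted per ERCC UMI, the ribosomal protein genes gave 1.097 to 1.38 UMI in Day 2 embryos. Day 3 embryos gave 1.45 (Day3-E1), 2.81 (Day3-E2), 1.599 (Day3-E3), 1.81 (Day3-E4), 1.12 (Day3-E5), 1.02 (Day3-E6), 1.62 (Day3-E7) and 2.58 (Day3-E8). On this scale 6 of 8 Day 3 embryos lay above all Day 2 embryos, Day3-E5 lay within their range and Day3-E6 below it. The log2 difference of the means fell to 0.49, with means of 1.25 ± 0.102 (SD, n = 6) and 1.75 ± 0.642 (SD, n = 8). The 5 embryos with a doubled spike-in share all belonged to the second barcode set, so on this scale the set and the day cannot be told apart. Within the first set Day3-E1 and Day3-E2, both of plate 1, exceeded the Day 2 embryos of plates 2 and 3 on both scales. Per cell, the family gave 1494 to 1989 UMI on Day 2 and 561.7 to 1714 on Day 3.

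**Figure D2:**
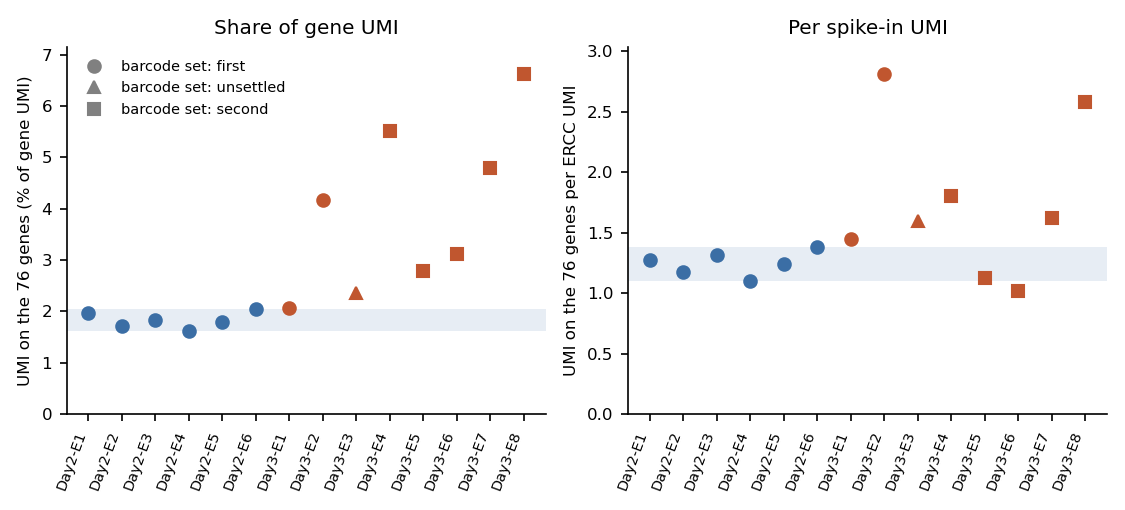
Summed UMI of the 76 genes in each embryo, as percent of gene UMI (left) and per ERCC spike-in UMI (right), with blue for Day 2, orange for Day 3, symbols for the barcode set and a band for the Day 2 range. Day3-E5 and Day3-E6 lie above the band on the left (2.79% and 3.114%) and at or below it on the right (1.12 and 1.02 UMI per ERCC UMI).

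The rise covered both subunits. The large subunit genes went from 0.889% ± 0.0887 of the UMI (SD, n = 6) to 1.80% ± 0.774 (SD, n = 8) and the small subunit genes from 0.939% ± 0.0727 (SD, n = 6) to 2.125% ± 0.856 (SD, n = 8). The large subunit held 46.7% to 50.2% of the family's UMI on Day 2 and 43.0% to 48.3% on Day 3, so the groups overlapped. The lowest large subunit shares were those of Day3-E6 (43.0%) and Day3-E3 (43.7%).

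Of the 76 genes, 72 passed the filter on low counts. In edgeR (quasi-likelihood test, p adjusted by Benjamini-Hochberg over all 5274 genes tested), 61 of the 72 were higher on Day 3 and 0 were lower at an adjusted p under 0.05. Among all genes tested, 21.3% were higher (1122 genes), and 31.8% were called in either direction (553 of them lower). The median log2 fold change was 1.54 over the 72 genes and -0.03 over all genes. Called higher were 34 of 42 large subunit genes and 27 of 30 small subunit genes, with median log2 fold changes of 1.58 and 1.51. For 7 of the 72 genes the lowest Day 3 embryo still exceeded the highest Day 2 embryo, against 3.98% of the genes tested. The 4 genes that did not pass the filter were RPL9, RPL12, RPL22L1 and RPL10L, with 9 to 170 UMI over the whole data set.

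Without TMM scaling 57 of the 72 genes were higher and 0 lower, where 35.4% of all genes were called in either direction. The split over all genes then moved to 887 higher and 982 lower, and their median log2 fold change to -0.28. Scaled to spike-in UMI, 25 were higher and 3 lower (RPL19, RPL26L1 and RPL36A), against 8.65% (456 genes) and 36.2% (1907 genes) of all genes, and the median was 0.57 over the 72 and -0.77 over all genes. Since this scale is per cell, a lower value on it does not show a loss per embryo. The family lay 1.57, 1.45 and 1.34 log2 units above the median of all genes under the 3 scalings. A change of scaling moves all genes by nearly the same amount, so the likeness of these values does not test the scaling. With only the first barcode set 28 of 74 tested members were higher (background 5.43%), and in plates 2 and 3 with plate as a term 61 of 72 (background 19.9%). In the fit of the first set the day cannot be told apart from the plate. In that of plates 2 and 3 it cannot be told apart from the barcode set. Without Day3-E4 and Day3-E8, a choice made after the values were seen, 53 of 72 were higher (background 14%).

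**Figure D3:**
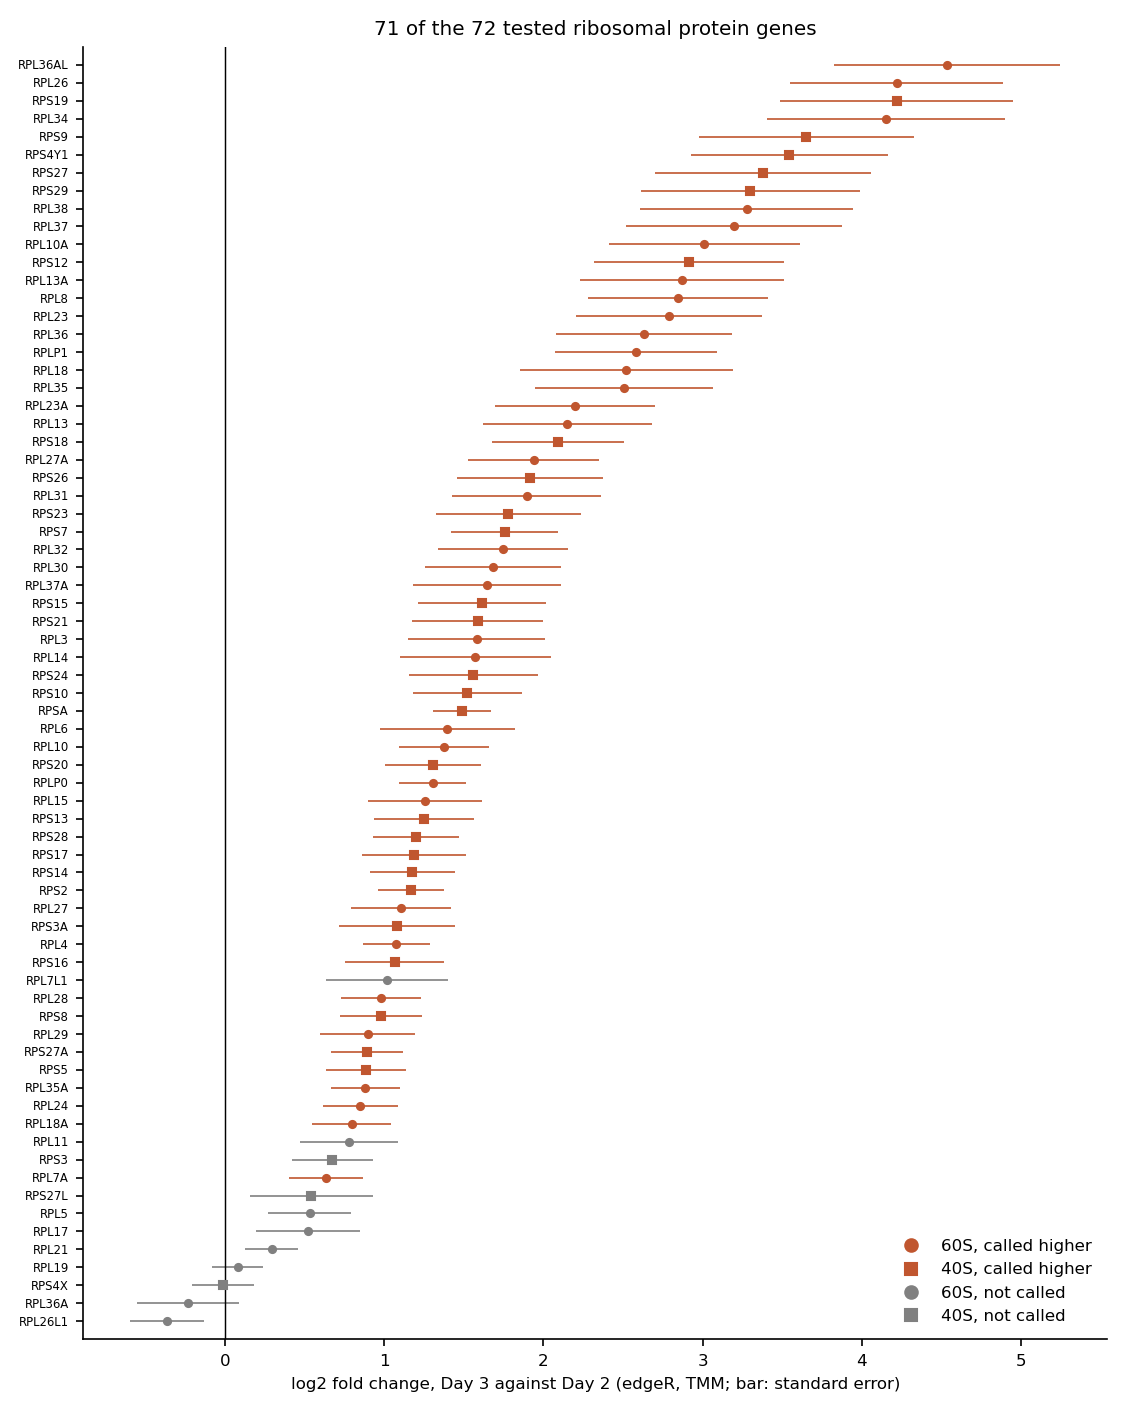
Log2 fold change of 71 of the 72 tested ribosomal protein genes between Day 3 and Day 2 (x axis, edgeR with TMM scaling, bars are standard errors), ordered by size, with circles for 60S and squares for 40S genes. The 60 genes shown that were called higher are orange and the 11 not called are grey, and values run from -0.36 (RPL26L1) to 4.54 (RPL36AL).

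The size of the rise differed widely between genes, from 0.64 to 4.54 on the log2 scale among those called. Over the 72 tested genes it exceeded 1 in 53, among them RPL7L1, which was not called, and 2 in 22. The 18 tested genes with the lowest Day 2 means (up to 67.8 CPM) had a median log2 fold change of 3.24, and the 18 with the highest (from 408 CPM) one of 0.94. Over the 72 genes Spearman's rho between Day 2 level and log2 fold change was -0.64, given without a p because the Day 2 values enter both and genes are not independent. With the mean level over all 14 embryos in place of the Day 2 level, rho was only -0.24. Some of the genes lowest on Day 2, such as RPS9 (12.8 to 25.1 CPM), could pass the filter on low counts only through their Day 3 counts. Among such genes the filter favours large rises. Others, such as RPL34 (29.3 to 45.6 CPM), had enough counts on Day 2 alone. The part of the filter in this relation was not tested. Without the filter the 4 genes it removed had log2 fold changes from 1.04 (RPL22L1) to 2.66 (RPL10L). In 3 Day 3 embryos the members were more alike in level than in any Day 2 embryo. The SD of log2(CPM + 1) over the 76 genes was 1.79 to 1.98 in Day 2 embryos, and 1.57 in Day3-E8, 1.59 in Day3-E4 and 1.67 in Day3-E2. The other 5 Day 3 embryos lay within the Day 2 range, from 1.80 in Day3-E6 to 1.97 in Day3-E3.

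The 10 largest rises were those of RPL36AL, RPL26, RPS19, RPL34, RPS9, RPS4Y1, RPS27, RPS29, RPL38 and RPL37, 5 in each subunit. RPL36AL, a second gene for the large subunit protein L36a, ranged from 16.638 to 59.2 CPM on Day 2 with a median of 26.3, and from 51.7 to 1187 on Day 3 with a median of 413. Its lowest Day 3 value, in Day3-E1, lay inside the Day 2 range, and the other 7 embryos lay above it. The log2 fold change was 4.54 (standard error, SE, 0.71, edgeR adjusted p = 0.000251). RPL26, a large subunit protein near the exit of the peptide tunnel, ranged from 19.8 to 55.6 CPM on Day 2 (median 32.7) and from 48.3 to 1013 on Day 3 (median 418). It too was within the Day 2 range in Day3-E1 alone (log2 fold change 4.22, SE 0.67, edgeR adjusted p = 0.000265). RPL34 of the large subunit ranged from 29.3 to 45.6 CPM on Day 2 and from 36.7 to 1370 on Day 3, with a log2 fold change of 4.15 (SE 0.75, edgeR adjusted p = 0.000655). RPS9, a small subunit protein that takes part in decoding accuracy, went from 12.8 to 25.1 CPM on Day 2 to between 20.0 and 461 on Day 3 (log2 fold change 3.65, SE 0.67, edgeR adjusted p = 0.000767).

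For all 10 of these genes Day3-E1 lay within the Day 2 range and Day3-E4 or Day3-E8 was the highest embryo. All 10 were also called higher with the first barcode set alone (background 5.43%) and with spike-in scaling (background 8.65%). Their log2 fold changes there were 2.131 to 3.57 and 2.06 to 3.37. Both fits reuse embryos from which these genes were picked, so they are not a separate test. RPS29, RPL38 and RPL37 lay above all Day 2 embryos in 6 Day 3 embryos and the others in 7.

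The order of the Day 3 embryos was shared by most members. Spearman's rho of a member with the sum of the other members over the 8 Day 3 embryos had a median of 0.90. It was above 0.8 for 54 of the 76 genes and below 0 for 4 (RPL26L1, RPS4X, RPL21 and RPL19). The points share library depth and a common denominator. This rho was not computed for genes outside the family, so the counts have no background to be set against. Day3-E1 was the lowest Day 3 embryo for 44 genes and Day3-E8 the highest for 50.

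**Figure D4:**
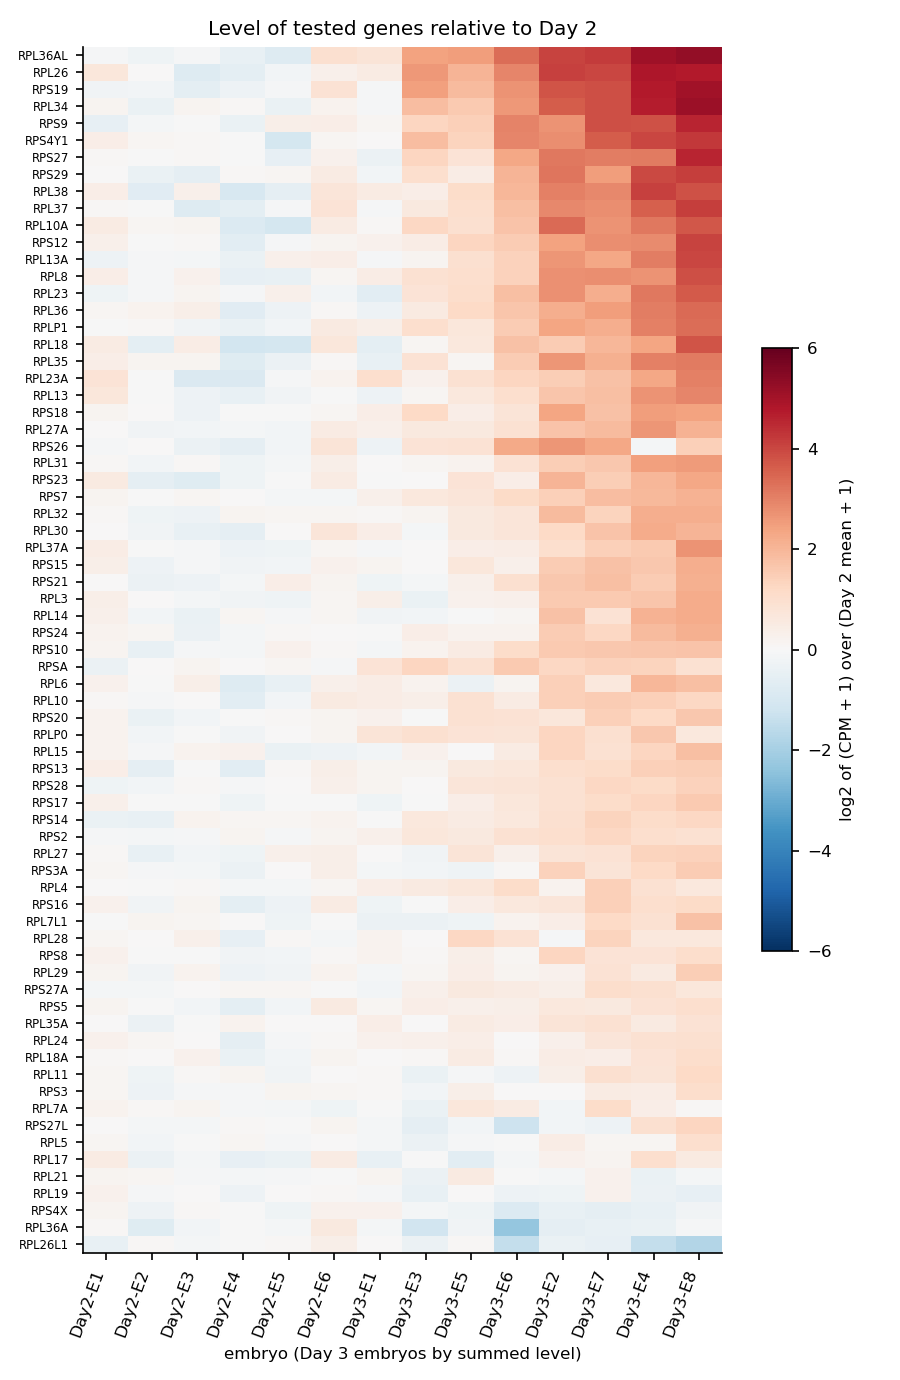
Level of 71 of the 72 tested genes (rows, ordered by log2 fold change) in each embryo (columns, Day 3 embryos ordered by summed level), as log2 of CPM + 1 over the Day 2 mean + 1. Red deepens from Day3-E1, where 14 of the 76 genes were above the Day 2 range, to Day3-E8, where 70 were, and the lowest rows stay pale or blue.

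Taken embryo by embryo, the family moved by very different extents. In Day3-E1 13 of the 72 tested genes (18.1%) lay above every Day 2 embryo, a share close to the 17.9% of all genes tested. In Day3-E3 there were 29 (40.3%, background 21% of genes). The counts were 48 (66.7%) in Day3-E5 and 47 (65.3%) in Day3-E6, with backgrounds of 26.7% and 27.8%. They were 62 (86.1%) in Day3-E2, 65 (90.3%) in Day3-E4, 66 (91.7%) in Day3-E7 and 66 (91.7%) in Day3-E8, with backgrounds of 25.6%, 28%, 28.2% and 27.8%.

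Of the genes above the Day 2 range in Day3-E1, RPSA (1968 CPM against a Day 2 maximum of 1265) and RPLP0 (603 against 410) exceeded it most. The others lay at 1.002 to 1.204 times the Day 2 maximum, and the share of such genes was close to that of all genes. RPSA, a small subunit protein also known as the laminin receptor, and RPLP0, the base of the stalk that binds translation factors, did not follow the order of most members over the Day 3 embryos. RPSA had 878 to 1265 CPM on Day 2 and then 1968, 2614, 2728, 2848, 2131, 3358, 2913 and 2106 in Day3-E1 to Day3-E8. The days did not overlap, and the embryo with the largest family share, Day3-E8, had the second lowest Day 3 value. Its log2 fold change was 1.49 (SE 0.18, edgeR adjusted p = 4.78e-05), and with spike-in scaling it was 0.66 and not called (adjusted p = 0.0643). RPLP0 had 307 to 410 CPM on Day 2 and 556 to 1091 on Day 3 with Day3-E8 lowest (log2 fold change 1.305, SE 0.21, edgeR adjusted p = 0.000293). With the rest of the family RPSA had a rho of 0.24 and RPLP0 one of 0.21 over the Day 3 embryos. Other called members with a low rho were RPL28 (0.26), RPL7A (0.31), RPL4 (0.38) and RPS26 (0.40), so this was not particular to these genes. RPLP1, which forms the same stalk, followed the family, from 215 to 422 CPM on Day 2 to between 370 (Day3-E1) and 2917 (Day3-E8) on Day 3. RPLP0, RPLP1, RPL28, RPL7A and RPL4 were singled out after their values were seen.

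Among the members with the highest mean levels were RPSA, RPS12, RPS27A and RPS2, all of the small subunit. These are levels of 3′ tags, which were not divided by transcript length. RPSA was the most abundant member in all 6 Day 2 embryos and in 5 Day 3 embryos, and RPS12 in Day3-E4, Day3-E7 and Day3-E8. RPS12, a small subunit protein, had 289 to 568 CPM on Day 2 with a median of 458. In Day3-E1 to Day3-E8 it had 548, 2431, 621, 3285, 1092, 1302, 3165 and 7543 CPM. It was within the Day 2 range in Day3-E1 alone, and its value in Day3-E8 was more than that of any other member in any embryo. There it made up 11.396% of the family's UMI, against 1.78% to 2.899% on Day 2 (log2 fold change 2.92, SE 0.60, edgeR adjusted p = 0.00167). RPS12, RPSA and RPLP1 accounted for 9.74%, 6.97% and 4.73% of the difference between the mean family levels of the days.

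RPS2, which lies at the mRNA entry of the small subunit, had 561 to 693 CPM on Day 2 and 773 to 1458 on Day 3, with no overlap between the days (log2 fold change 1.17, SE 0.21, edgeR adjusted p = 0.000575). RPS27A, made as a fusion with ubiquitin, had 822 to 955 CPM on Day 2 and 801 to 1827 on Day 3 (log2 fold change 0.89, SE 0.23, edgeR adjusted p = 0.00667). Neither RPS2 nor RPS27A was called with spike-in scaling, and RPS27A was not called with the first barcode set alone (adjusted p = 0.336).

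The genes that did not follow the family, that is were tested and not called higher, numbered 11: RPL5, RPL7L1, RPL11, RPL17, RPL19, RPL21, RPL26L1, RPL36A, RPS3, RPS4X and RPS27L. They include 4 members of the paralog pairs described next. RPL19 of the large subunit had 448 to 669 CPM on Day 2 (median 570) and 396 to 663 on Day 3 (median 462). The days overlapped throughout, and 0 Day 3 embryos were above all Day 2 embryos (log2 fold change 0.08, SE 0.16, edgeR adjusted p = 0.721). RPL21, also of the large subunit, had 486 to 601 CPM on Day 2 (median 518) and 409 to 782 on Day 3 (median 508). Its highest value was in Day3-E5 and its lowest in Day3-E4, where the family was high (log2 fold change 0.29, SE 0.17, edgeR adjusted p = 0.179).

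RPL5 and RPL11, which bind 5S ribosomal RNA before it joins the large subunit, had log2 fold changes of 0.53 (SE 0.26, edgeR adjusted p = 0.127) and 0.78 (SE 0.31, edgeR adjusted p = 0.0608). RPL5 had 218 to 271 CPM on Day 2, 194 to 336 in 7 Day 3 embryos and 502 in Day3-E8. RPL11 had 235 to 320 CPM on Day 2 and 217 to 638 on Day 3, and lay above the Day 2 range in 4 embryos. RPS3, at the mRNA entry of the small subunit, had 517 to 715 CPM on Day 2, 573 to 905 in 7 Day 3 embryos and 1349 in Day3-E8, and missed the threshold narrowly (log2 fold change 0.68, SE 0.25, edgeR adjusted p = 0.0501). RPL7L1, a paralog of RPL7, did so as well with 118 to 160.8 CPM on Day 2 and 112 to 487 on Day 3 (log2 fold change 1.02, SE 0.38, edgeR adjusted p = 0.0515). RPL17 had 48.7 to 98.0 CPM on Day 2 and 44.2 to 140 on Day 3 (log2 fold change 0.52, SE 0.33, edgeR adjusted p = 0.225). These 5 genes were nevertheless ordered like the family over the Day 3 embryos, with a rho of 0.69 to 0.98, unlike RPL19 (-0.31) and RPL21 (-0.36). A p above the threshold does not show that a gene stayed level.

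The paralog pairs showed the sharpest contrast within the family. For 5 of the 9 pairs considered, both genes had a row. In 4 of these one gene rose among the 10 largest of all members and the other was not called. The share of a gene in the UMI of its pair does not depend on how embryos are scaled. The embryos are given with Wilson intervals at 95% in the plot of pair shares, and the intervals cover counting error only. Reads that fit both genes of a pair can be lost or assigned to either, which the count table does not show.

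RPL26L1 differs from RPL26 in only a small part of the protein. Its level was 419 to 731 CPM on Day 2 (median 572) and 167 to 590 on Day 3 (median 416). The lowest values were those of Day3-E8 (167), Day3-E4 (209) and Day3-E6 (213), all below the Day 2 range, while RPL26 was highest in Day3-E4 and Day3-E8. The log2 fold change of RPL26L1 was -0.36 (SE 0.23, edgeR adjusted p = 0.233), and over the Day 3 embryos its rho with the rest of the family was -0.86, the lowest of all members. Its share of the pair was 88.3% to 96.3% in the 6 Day 2 embryos. Day3-E1 had 92.4%, Day3-E5 80.5% and Day3-E3 67.3%, followed by Day3-E6 (44.1%), Day3-E7 (41.7%) and Day3-E2 (41.2%). It was lowest in Day3-E4 (17.1%) and Day3-E8 (14.91%). In all but Day3-E1 the share was below every Day 2 embryo.

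Single cells held enough UMI of this pair to be read one by one. Among cells with 10 or more UMI on the pair, RPL26L1 made up 82.5% or more in each of the 36 Day 2 cells and 84.3% or more in the 13 cells of Day3-E1. In Day3-E8 it made up 6.25% to 29.6% in 14 cells. The cells of other embryos covered a wide range, 18.2% to 60.9% in Day3-E2 (13 cells), 11.54% to 85.7% in Day3-E6 (10 cells) and 33.3% to 100% in Day3-E3 (13 cells). With so few UMI per cell, counting error widens these ranges.

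RPL36A, the counterpart of RPL36AL, had 42.4 to 107 CPM on Day 2 (median 67.0) and 13.15 to 66.9 on Day 3 (median 52.8), with the lowest value in Day3-E6. The days overlapped (log2 fold change -0.23, SE 0.32, edgeR adjusted p = 0.608). RPL36AL made up 20.6% to 37.1% of the pair on Day 2. It made up 44.3% in Day3-E1, 74.2% in Day3-E5, 83.8% in Day3-E3 and 91.5% to 96.0% in the other 5 Day 3 embryos. This was the only one of the pairs in which all 8 Day 3 embryos, Day3-E1 included, lay beyond the Day 2 range. For Day3-E1, with 70 UMI on the pair, the Wilson interval of 33.2% to 55.9% covered the Day 2 maximum of 37.1%. After each cell was thinned to 10000 UMI, RPL36AL was detected (1 or more UMI) in 21.6% of 37 cells on Day 2 and in 83.5% of 103 on Day 3. Without thinning the shares were 76.7% of 43 and 94.1% of 118 cells.

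RPS4X and RPS4Y1 encode versions of the small subunit protein S4. The RPS4Y1 of the count table is not on the Y chromosome in the RefSeq annotation of ARS-UCD2.0, an assembly later than that of the files. RPS4X had 148 to 221 CPM on Day 2 (median 185) and 103 to 222 on Day 3 (median 144). Its log2 fold change was -0.01 (SE 0.19, edgeR adjusted p = 0.969), with a sign that changes under other scalings. RPS4Y1 had 19.2 to 53.4 CPM on Day 2 and 41.7 to 770 on Day 3, a log2 fold change of 3.55 (SE 0.62, edgeR adjusted p = 0.00054). RPS4Y1 made up 11.19% to 23.2% of the pair on Day 2. On Day 3 it made up 15.8% in Day3-E1, 40.4% in Day3-E5, 47.1% in Day3-E3, 68.0% in Day3-E2, 75.5% in Day3-E6 and 80.0% to 83.1% in Day3-E7, Day3-E8 and Day3-E4. Thus 7 of 8 Day 3 embryos exceeded all Day 2 embryos.

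RPS27L had 87.1 to 107 CPM on Day 2 (median 95.4) and 39.4 to 234 on Day 3 (median 85.3), and it was above the Day 2 range only in Day3-E4 (185) and Day3-E8 (234). Its log2 fold change was 0.54 (SE 0.39, edgeR adjusted p = 0.288). RPS27, its counterpart in the small subunit, had 26.9 to 45.6 CPM on Day 2 and 30.0 to 924 on Day 3 (log2 fold change 3.38, SE 0.68, edgeR adjusted p = 0.00145). The share of RPS27L in the pair was 68.8% to 77.9% on Day 2 and 74.6% in Day3-E1. In the other Day 3 embryos it was 55.9% (Day3-E5), 41.0% (Day3-E3), 35.0% (Day3-E4), 20.2% (Day3-E8), 19.4% (Day3-E2 and Day3-E7) and 17.0% (Day3-E6), each below every Day 2 embryo.

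**Figure D5:**
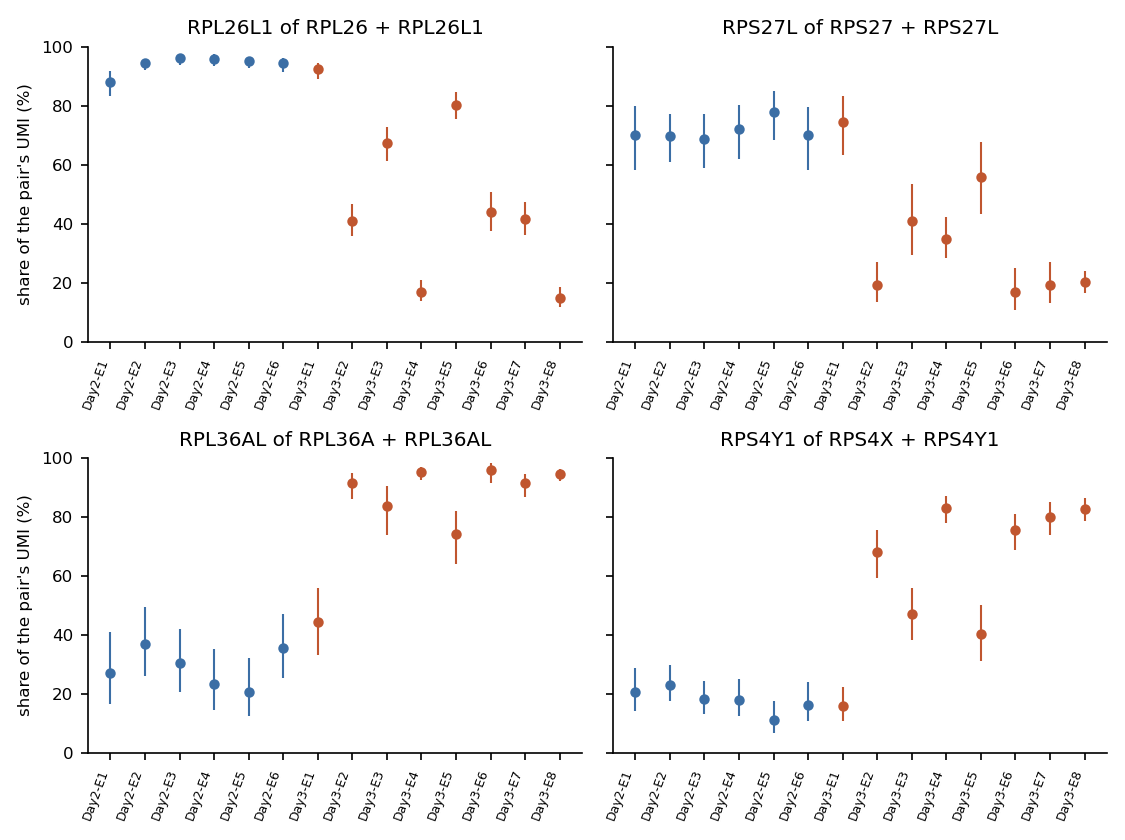
Share of 1 gene in the UMI of its paralog pair (y axis, percent) in each embryo (blue: Day 2, orange: Day 3), with 95% Wilson intervals. In all 4 pairs Day3-E5 lies nearest to the Day 2 embryos after Day3-E1, and RPL26L1 ranges from 96.3% on Day 2 down to 14.91% in Day3-E8.

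The fifth pair did not show this. RPL10, which joins the large subunit late in its assembly, had 241 to 547 CPM on Day 2 and 482 to 1083 on Day 3 (log2 fold change 1.38, SE 0.28, edgeR adjusted p = 0.00174). RPL10L, its paralog, had 1 UMI on Day 2 and 8 on Day 3, and its share of the pair never exceeded 0.88%.

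RPS26, a small subunit protein at the mRNA exit, was singled out after its values were seen. It had 19.8 to 50.1 CPM on Day 2 and 23.3 to 190 on Day 3. It was called higher (log2 fold change 1.91, SE 0.46, edgeR adjusted p = 0.00482), yet in Day3-E4, where the family was second highest, it had 26.9 CPM and lay within the Day 2 range.

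Cells of 1 embryo also differed from each other in their share of ribosomal protein mRNA. Day 2 cells ranged from 1.196% to 2.79% with a median of 1.86% (43 cells), and Day 3 cells from 1.51% to 9.02% with a median of 3.49% (118 cells). In Day3-E4, Day3-E7 and Day3-E8 no cell fell into the range of the Day 2 cells, while 13 of 14 cells of Day3-E1 and 13 of 16 of Day3-E3 did, as did 7 of 17 in Day3-E5, 2 of 14 in Day3-E6 and 1 of 14 in Day3-E2. The highest cells were 1 of Day3-E8 at 9.02% and 1 of Day3-E7 at 8.41%. Day3-E3 held 1 cell at 5.12%, read from 9320 UMI, while its other 15 cells lay between 1.83% and 3.52%.

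The SD between cells of an embryo was 0.334 percentage points on Day 2 and 0.942 on Day 3, where counting alone gives 0.0928 and 0.159. The SD between embryo means, each averaged over the cells of an embryo, was 0.142 on Day 2 and 1.497 on Day 3. In each of the 14 embryos the SD between cells was larger than the counting SD, by 1.62 to 7.29 times. With each cell thinned to 10000 UMI, the SD within embryos was 0.364 on Day 2 (37 cells) and 0.877 on Day 3 (103 cells).

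The share tended to be higher in cells with fewer UMI. Spearman's rho with the cell's UMI was -0.53 to 0.66 in Day 2 embryos (median -0.33) and -0.78 to 0.43 in Day 3 embryos (median -0.46), given as a description since cells of 1 embryo share a library. The shares of the large and of the small subunit went together from cell to cell, with a rho of 0.38 to 0.92 in Day 3 embryos (median 0.83) and 0.02 to 0.96 in Day 2 embryos (median 0.24). They share the cell's total as denominator. At 10000 UMI a cell of a Day 2 embryo held a UMI for 50.3 to 54.8 of the 76 genes on average. On Day 3 the mean was 52.2 in Day3-E1 and 70.4 in Day3-E8.

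Ribosomal proteins with other symbols moved with the family. FAU, made as a fusion of a ubiquitin-like part and a ribosomal protein, and RACK1, a scaffold on the small subunit, were called higher. FAU had 455 to 636 CPM on Day 2 and 758 to 5868 on Day 3 (log2 fold change 3.157, SE 0.44, edgeR adjusted p = 0.0001). RACK1 had 23.9 to 44.9 and 28.3 to 1004 CPM (log2 fold change 4.30).

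Other genes of the translation machinery moved less. Of 18 tested genes with mRNAs of the same terminal tract, most of them translation factors, 8 were called higher and 0 lower, with a median log2 fold change of 0.64. Over all 5274 genes tested 21.3% were higher and 553 genes lower, with a median of -0.03, and this is the background of the lists that follow too. The largest changes were those of HNRNPA1 (2.68) and EEF2 (2.117), the elongation factor that moves the ribosome along the mRNA, and the smallest among those called were those of EEF1G (0.57) and EEF1B2 (0.85). EEF1A1, which brings aminoacyl tRNA to the ribosome, had 251 to 395 CPM on Day 2 and 200.2 to 475 on Day 3 (log2 fold change 0.12, adjusted p = 0.689 by edgeR).

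Of 62 tested ribosome assembly and ribosomal RNA factors 24 were higher and 2 lower (median 0.44), against 21.3% of all genes higher. NOP16 (4.55) and KRR1 (3.93), nucleolar factors, rose most, and NMD3 (-0.86), an export adaptor of the large subunit, and LTV1 (-0.78), a small subunit assembly factor, were the 2 that fell. Of 15 tested genes of RNA polymerase I and its factors 7 were higher and 0 lower (median 0.57, same background), led by TAF1D (4.61) and POLR1C (4.44), with RRN3 (1.06) and TTF1 (1.47) the smallest among those called.

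The proteins of the mitochondrial ribosome, which shares no protein genes with the cytosolic one, changed about as all genes did. Of 57 tested genes 10 were higher and 3 lower, against a background of 21.3% higher, and their median log2 fold change was -0.05 where that of all genes was -0.03. Their summed level was 6938 to 7587 CPM on Day 2 and 5470 to 7577 on Day 3, with overlapping groups. Among those called, MRPL17 (3.67) and MRPL16 (2.73) had the largest and MRPL33 (-1.15) and MRPL38 (-1.15) the lowest changes.

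The summed level of oocyte and cleavage stage markers was lowest in Day3-E8, Day3-E4 and Day3-E2, but not low in Day3-E7, whose family share exceeded that of Day3-E2. Of 11 tested markers 0 were higher and 3 lower (ZAR1, -1.47, GDF9, -0.96, and OOEP, -0.55), with a median of -0.25. The 8 not called ran from -0.93 (NLRP5) to 0.48 (DPPA3, the marker with the highest mean level). The sum of the markers was 3208 CPM in Day3-E8, 6471 in Day3-E4 and 6538 in Day3-E2. It was 10215 to 12437 in the other Day 3 embryos, Day3-E7 with its family share of 4.79% included. The part of these genes in the shares of the ribosomal protein genes was not tested. Of 3 tested cumulus markers 0 were called, and no sperm marker passed the filter.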

How the data were processed

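The deposited UMI count table holds whole-number counts per gene and cell. According to the methods, the authors mapped reads to the Bos tau7 genome and ERCC sequences with STAR 2.5.2b and counted UMI with the Drop-seq pipeline. Reads shared by near-identical genes were not resolved. A second, normalised table was not used.

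Cells under 2000 UMI were removed, ERCC rows were kept apart, and the counts of an embryo's cells were summed. Day 3 was compared with Day 2 (8 against 6 embryos) with edgeR 4.0.16 (TMM scaling, filterByExpr, quasi-likelihood test, Benjamini-Hochberg adjustment) over 5274 genes, and DESeq2 1.42.0 was an alternative. The steps were tested on simulated counts. Intervals are Wilson intervals. Thinning drew 10000 UMI per cell, which left out 6 Day 2 and 15 Day 3 cells.

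Members and lists were chosen with earlier results of these data known. Named were the 10 called members with the largest log2 fold change, those below 0, those not called, the 5 with the highest mean level, paralog pairs with a row for both genes, and from other lists the 2 largest and 2 smallest changes among called genes. All 76 symbols were found in RefSeq (ARS-UCD2.0), which was used for names only. No coordinates or sequences are given, and a few genes that enter the counts are not reported here by name.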

Additional observations from a re-analysis of the deposited data

Results flagged for a closer look

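Dixon's test flagged groups of values in which the highest or lowest embryo stood far from the rest of its day. Over the summed level and the named genes, 7 of 58 groups were flagged. Chance gives about 1 in 20 for independent groups, but many of these genes go together over embryos and some were chosen by their values. The count of 7 therefore does not show an excess. In Day3-E8, the embryo with the highest family share, 4 genes stood out: RPS12 with 7543 CPM (next highest 3285), RPS3 with 1349 (905), RPS27 with 924 (353) and RPL5 with 502 (336). In Day2-E6, the Day 2 embryo with the highest family share and the fewest UMI, RPL36AL had 59.2 CPM (next highest 27.8) and RPS19 45.6 (23.0). RPL10L had 2.137 CPM in Day2-E1, which is 1 UMI, and 0 in the other Day 2 embryos. The summed level itself had no such embryo on either day.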

How the results depend on the processing

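When each embryo was left out in turn, the count of 61 members called higher ranged from 56 to 64. Of all genes, 17.4% to 24.0% were higher in these fits. The count of members called lower stayed at 0. The count higher fell to 28 (background 5.43%) with the first barcode set only, which leaves 2 Day 3 embryos, both of plate 1. It fell to 25 (background 8.65%) with spike-in scaling, with which 3 members were lower (background 36.2%). With embryo number as a replicate block it fell to 32 (background 11.81%). Day3-E7 and Day3-E8 have no Day 2 embryo of the same number, so they add nothing to the day difference in this fit. Same-numbered embryos share only the number, since their deviations correlated between -0.13 and 0.03 and none correlated best with its own number. The other settings gave 50 to 64, where 14% to 25.1% of all genes were higher. The 50 came from thinned cells, with 62 members tested and 20.1% of all genes higher. The log2 difference of the summed level was 0.95 to 1.198 without single embryos, and 0.49 per ERCC UMI. The causes were not tested.

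The following named genes turned sign, and of these RPS27A alone was called under TMM scaling. With spike-in scaling RPL11 was at -0.16, RPL17 at -0.39, RPL19 at -0.71 (adjusted p = 0.0498 by edgeR), RPL21 at -0.50, RPL5 at -0.35, RPL7L1 at -0.015, RPS27L at -0.42 and RPS3 at -0.24. RPS27A was at -0.027. These spike-in values are per cell, and Day 3 embryos hold more cells. RPS4X was at 0.015 with DESeq2, 0.011 with RLE factors, 0.15 with the first barcode set, and -0.12 to 0.068 without single embryos. RPL26L1 was at 0.019 with the first barcode set. RPL19 was at -0.19 without TMM, -0.0083 without the filter, -0.023 with the block and -0.025 to 0.13 without single embryos. RPS27L was at -0.23 without Day3-E4 and Day3-E8. RPS3, RPL7L1 and RPL11 were called higher in DESeq2 and without Day3-E1.

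Depth limits RPL9, RPL12, RPL22L1 and RPL10L, which the filter removed. Without the filter RPL12 was higher (log2 fold change 1.96, edgeR adjusted p = 0.00665), and the other 3 were not called.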
